A study of Mus musculus with 12 samples.

Results

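The cells described here were 113 barcodes of the blood library of a treatment-naive C57BL/6J mouse that carried transcripts of circulating monocytes. A barcode was taken if it held at least 200 detected genes, at most 10% of unique molecular identifiers (UMIs) in mitochondrial genes, UMIs of at least 3 of the 7 genes Ly6c2, Ccr2, Plac8, S100a4, Chil3, Vcan and Fn1, and fewer than 2 of the 4 B cell genes Cd79a, Cd79b, Ms4a1 and Ly6d. These 113 cells were 33.1% (95% exact interval 28.2% to 38.4%) of the 341 blood cells that passed the cell filter, of 30775 such cells in the 12 libraries of the series, and are called monocyte-rule cells. They were compared with 11767 GFP+ cells from the brains of 4 treated mice (3344, 2266, 2621 and 3536 cells), to ask which transcripts differ between blood cells of this kind and marrow-derived cells that have lodged in the brain.

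Classical monocytes leave the marrow, circulate briefly and enter tissues through the chemokine receptor Ccr2, whereas nonclassical monocytes patrol the vessel wall and depend on the transcription factor Nr4a1. Microglia arise from the yolk sac, persist in the brain by self-renewal and are recognised by genes such as P2ry12, Tmem119 and Sall1, which TGF-beta signaling maintains. After conditioning that empties the niche, progeny of transplanted hematopoietic stem cells can settle in the brain and take on part of this profile, and the study calls them microglia-like cells (MLCs).

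The treated mice were C57BL/6J animals conditioned with busulfan and given lineage-depleted hematopoietic stem and progenitor cells of male donors, transduced with a lentiviral vector coding for GFP. A female and a male were dosed intravenously (i.v.) and a female and a male intracerebroventricularly (i.c.v.), and all of them later received total bone marrow that had not been transduced. GFP+ MLCs and GFP- endogenous microglia of each mouse were sorted as CD45+CD11b+CX3CR1+ cells from enzymatically dissociated whole brain, 1 library per sort and mouse, so that a group of 4 libraries is 4 mice. Brains were taken 12 to 13 months from dosing by the paper, and the labels of these samples state 22 to 28 weeks as the age. The naive mouse is given as 8 to 12 weeks old in the labels, with no sex, and its blood is labelled as white blood cells. Blood was thus 1 library of 1 untransplanted, unconditioned mouse. Tissue, mouse, age, conditioning, transplantation, transduction, cell preparation and library therefore cannot be told apart in any difference between this blood and the MLCs. An exact permutation test of 1 library against 4 cannot go below p = 0.2.

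Each naive library holds exactly 2500 deposited barcodes, of which 341 passed the filter in blood. The monocyte-rule cells held 367 to 30446 UMIs (median 8525) and 258 to 5278 genes (median 2769), and the GFP+ libraries had median UMI counts per cell of 3499 and 1307.5 (i.v. female and male) and 1058 and 1060.5 (i.c.v. female and male). Summed, the monocyte-rule cells gave 1078135 UMIs and the GFP+ libraries 8835197 to 16514669, and levels are given as CPM, counts scaled to a common library total. With the TMM factor of 1.06 that the fit gave the blood sum, a transcript counted 3 times in it stands at 2.62 CPM. No monocyte-rule cell shared its barcode with a kept cell of another library. The i.v. GFP+ libraries carried more neutrophil marker transcripts (1669 and 3305 CPM over 9 genes) than the i.c.v. GFP+ libraries (112 and 113 CPM) or the monocyte-rule cells (136 CPM), and their part in the results was not tested beyond the counts without such cells given below. In sums of this kind, fewer cells with a transcript and less transcript per cell cannot be told apart.

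Among the genes of the rule, S100a4 was found in all 113 cells, Ccr2 in 94, Fn1 in 92, Plac8 in 90, Ly6c2 in 59, Chil3 in 43 and Vcan in 13. The number of rule genes per cell was 3 in 41 cells, 4 in 19, 5 in 20, 6 in 26 and 7 in 7. Just outside the threshold lay 55 cells with 2 rule genes and fewer than 2 B cell genes, and 20 further cells reached 3 rule genes but were left out by the B cell genes. Depth was compared among kept blood cells with fewer than 2 B cell genes. Those with exactly 3 rule genes had a median of 8216 UMIs and those with exactly 2 had 5558. Cells with 4 to 7 rule genes had medians of 8487 to 9250.5. Depth thus differed across the threshold and showed no steady rise above it.

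Markers of other blood cells were present. At least 3 erythroid markers, all of them hemoglobin chains or Alas2, were found in 13 monocyte-rule cells and at least 2 in 52, and at least 3 B cell markers in 3 and at least 2 in 39. At least 3 markers of T cells, of NK cells and of neutrophils were found in 2 monocyte-rule cells each, at least 2 of neutrophils in 30, at least 3 of dendritic cells in 3 and at least 3 of platelets in 0. The neutrophil list, with 147 UMIs in these cells, rested mostly on Csf3r (92 UMIs, 60 cells) and Mmp8 (30 UMIs, 21 cells). Camp, Ngp, Ly6g and Retnlg had 0 UMIs in them. Ighm, the heavy chain of IgM, had UMIs in 82 of the 113 cells and in 168 of the other 228 blood cells, with at most 7 UMIs in a monocyte-rule cell. Hbb-bs, a hemoglobin chain, had UMIs in 83 monocyte-rule cells and 166 other blood cells, and barcodes under 200 genes in the same library held 244024 UMIs of it. These shares were alike in both classes of cell. The other blood cells include cells with B cell transcripts, Cd79a having UMIs in 128 of them. Shares of cells thus cannot tell background from expression here, and which of them it was was not tested.

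The monocyte-rule cells were not uniform, and the label of blood monocytes did not hold for all of them. They were split into 4 sets, by the genes given with each, and a remainder, as the heatmap of levels by set shows. The split was made after the values were seen and for description only. CPM by set use the UMIs of the set's cells alone.

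The largest was a Ly6c2 set of 45 cells, with 34.3% of the UMIs. It was formed of cells with Ly6c2 that fell in none of the Treml4, Prg4 and Retnla sets described next. Ly6c2 in all 45 thus follows from the definition, and its level (1389 CPM) is description only. Ccr2 was found in 43 of the 45 cells. The set led the others in F13a1 (1046 CPM), a coagulation factor chain of classical monocytes, and in Hp (594 CPM), haptoglobin. A Treml4 set of 37 cells, with 28.2% of the UMIs, carried at least 3 of Treml4, Ace, Cd300e, Eno3, Adgre4, Spn, Pglyrp1 and Cd300ld, genes known from nonclassical monocytes. It held Ace at 672 CPM in 33 cells and Treml4 at 296 CPM in 29 cells, and 10 of its cells also had Ly6c2.

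A Prg4 set of 10 cells gave 14.5% of the UMIs although it was 8.85% of the cells. It carried at least 3 of Prg4, Alox15, Serpinb2, Ltbp1, Selp, Ecm1, Ptgis and F5, and Gata6, a transcription factor of resident peritoneal macrophages, had UMIs in 8 of the 10 cells (179 CPM) and in 0 of the other 103. Prg4, lubricin, stood at 5238 CPM, Alox15, a lipoxygenase, at 3511 CPM, and Fn1, fibronectin, at 13553 CPM against 2275 CPM in the Ly6c2 set and 399 CPM in the Treml4 set. Pf4 (4880 CPM), Slpi (9306 CPM) and the complement gene C1qa (2315 CPM) were also at their highest there. Ly6c2 was found in 4 of the 10 cells, at 76.7 CPM. In all, 32 kept blood cells met the Prg4 rule, 22 of them outside the monocyte-rule cells, whereas 1 GFP+ cell of the i.v. female, 1 GFP- cell of the i.v. female and 1 cell of the naive neuron sort did, and 0 cells of the other 8 libraries.

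A Retnla set of 7 cells, with 10.1% of the UMIs, held at least 10 UMIs of Retnla per cell (39200 CPM), a secreted resistin-like protein, together with Mrc1, the mannose receptor (568 CPM), Ccr2 (1567 CPM) and Cd74, the invariant chain of MHC class II (19682 CPM). None of its cells had Ly6c2. The remaining 14 cells, with 12.9% of the UMIs, had Cd74 at 19960 CPM and H2-Aa, an MHC class II chain, at 7318 CPM, and Cd209a and Flt3, genes of dendritic cells, each in some cells (604 and 79.1 CPM). Counts without the Prg4 and Retnla sets are given beside several results below.

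**Figure D1:**
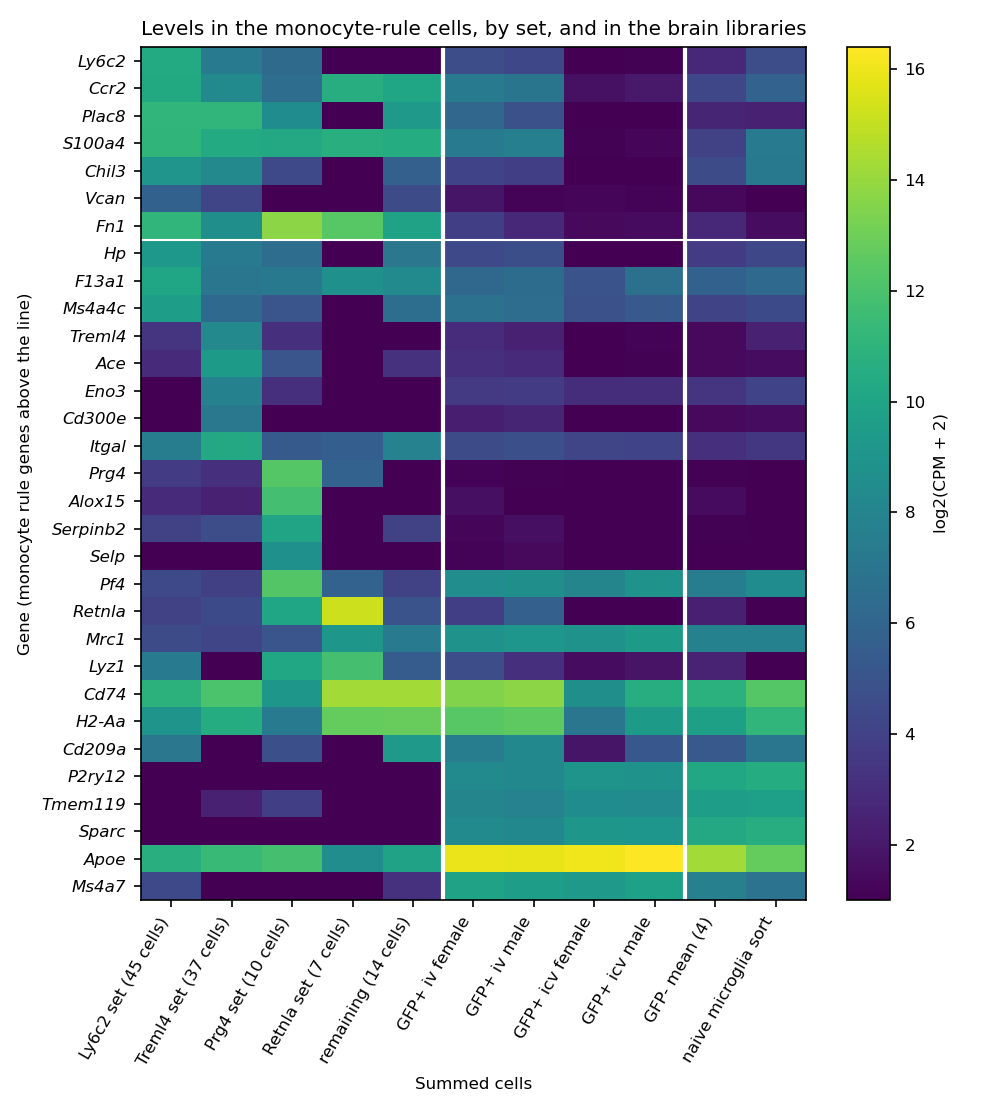
Levels of selected genes, as log2(CPM + 2), in the 5 groups of monocyte-rule cells and in the brain libraries (columns) by gene (rows). Ly6c2 set cells (45) carry Ly6c2 and F13a1, Treml4 set cells (37) carry Ace and Eno3, the Prg4 set (10) carries Prg4, Alox15 and Fn1, and P2ry12 and Sparc are at 0 in all 5 groups of blood cells and present in every brain column.

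Between the summed monocyte-rule cells and the 4 GFP+ libraries, 12738 genes were tested by the quasi-likelihood method of edgeR, and a gene was called at a Benjamini-Hochberg adjusted p under 0.05. All adjusted p values below are from such fits. The spread came from the GFP+ libraries, and the lone blood library was assumed to vary like them. Of these genes, 1149 (9.02%) were called higher and 1569 (12.3%) lower in the monocyte-rule cells. Without any test, 257 genes (2.02%) lay at least 4-fold above every GFP+ library and 437 (3.43%) at least 4-fold below every one on the log2(CPM + 2) scale, and without the Prg4 and Retnla sets 214 and 571 did. The filter on low counts was set by the smaller group, the lone blood library, so a gene could enter through blood alone. Counts of genes higher in blood thus include genes that entered because they were high there. Without that filter 253 and 454 genes lay 4-fold above and below. The median log2 fold change over all genes tested was -0.22, and changes are read against it. Levels in the following paragraphs are CPM scaled by TMM factors, and log2 fold changes are monocyte-rule cells minus GFP+.

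**Figure D2:**
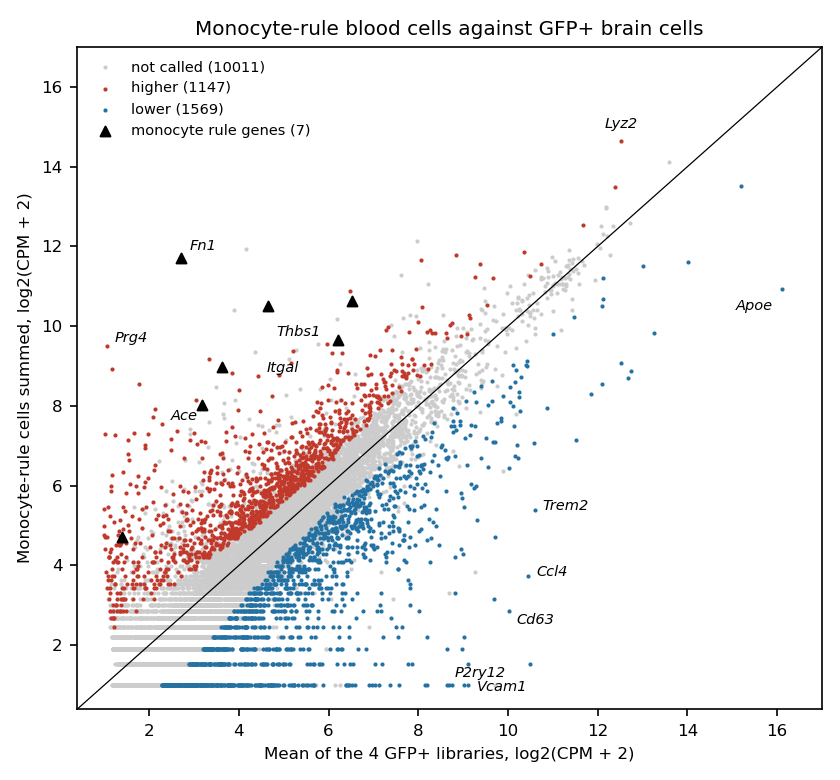
Each gene's level in the 113 monocyte-rule cells summed (y axis, log2(CPM + 2)) against the mean of the 4 GFP+ libraries (x axis, same scale). Red and blue points are genes called higher and lower, triangles the 7 rule genes, which are description only and stay out of the counts in the key. Apoe, Trem2, Ccl4, Cd63 and P2ry12 lie far below the line of equal level, and Prg4, Fn1 and Itgal far above it.

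The difference of the rule genes from blood is given without a test, since the rule used them. Ccr2 (mm10, chromosome 9, 124101950 to 124113557) stood at 803 CPM in the monocyte-rule cells, at 162 and 125 CPM in the i.v. GFP+ libraries and at 1.19 and 2.21 CPM in the i.c.v. GFP+ libraries. S100a4, a calcium-binding protein of motile cells, stood at 1583 CPM in the monocyte-rule cells, at 162 and 196 CPM in the i.v. and at 0.109 and 0.277 CPM in the i.c.v. libraries. Ly6c2 was at 502.5 CPM against 23.2 and 18.2 CPM (i.v.) and 0 and 0.0922 CPM (i.c.v.), and Plac8 at 1443 CPM against 66.4 and 26.2 CPM (i.v.) and 0 CPM in both i.c.v. libraries. Each of these 4 genes was thus highest in blood, lower in the i.v. libraries, and at or near 0 in the i.c.v. libraries.

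**Figure D3:**
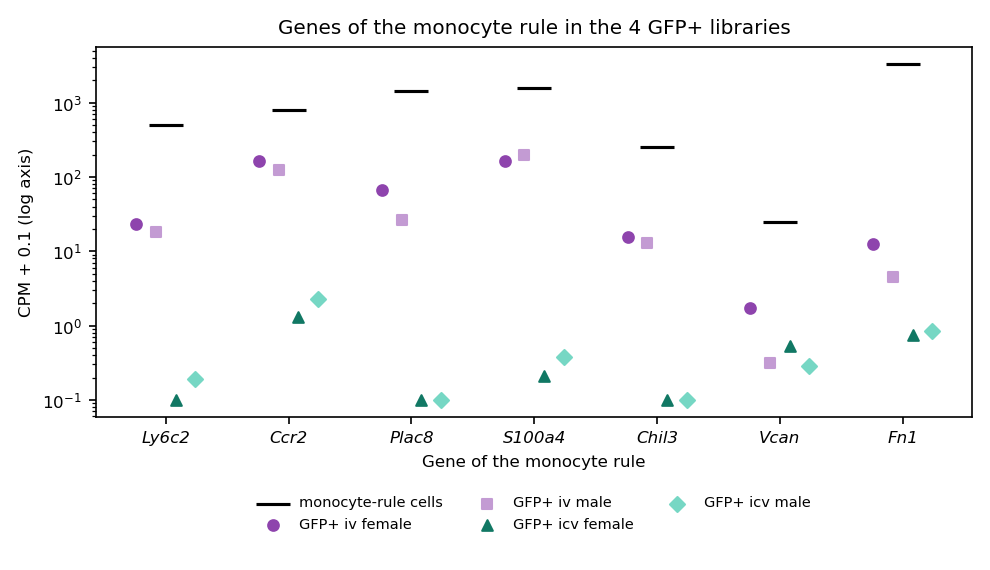
CPM + 0.1 on a log axis of the 7 rule genes in the monocyte-rule cells and in each GFP+ library. The points of Ccr2, S100a4, Plac8, Ly6c2 and Chil3 fall in the order blood, i.v. libraries, i.c.v. libraries, with the i.c.v. points near the lower end of the axis.

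Classical monocyte genes that the rule did not use stood higher in the blood cells. Of 14 listed and tested, 7 (against 9.02% of all genes) were called higher and 0 lower, with a median log2 fold change of 3.36. Thbs1, thrombospondin, stood at 668 CPM against 12.5, 53.5, 44.4 and 29.9 CPM in the GFP+ libraries (i.v. female, i.v. male, i.c.v. female, i.c.v. male, the order used from here on), with a log2 fold change of 4.25 (SE, the standard error, 0.60, adjusted p = 0.00920). Its blood level came mostly from the Prg4 set (3422 CPM against 481 CPM in the Ly6c2 set). Gsr, glutathione reductase, stood at 305 CPM against 29.2, 33.4, 18.7 and 17.9 CPM (log2 difference 3.62, SE 0.34, adjusted p = 0.00490), and F13a1 at 474 CPM against 71.8, 84.8, 29.1 and 99.9 CPM (2.73, SE 0.53, adjusted p = 0.0199). Hp was at 266 CPM against 19.4, 23.6, 0 and 0 CPM and did not pass (adjusted p = 0.119). Against the i.v. libraries alone 13 of the 14 genes were called higher (background 7.6%), and against the i.c.v. libraries alone 13 as well (background 18.2%).

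Nonclassical monocyte genes gave 10 of 14 called higher (71.4%) and 0 lower, with a median log2 fold change of 4.08. Itgal, the alpha chain of the integrin LFA-1, stood at 430 CPM against 21.9, 25.1, 16.8 and 14.8 CPM (log2 difference 4.45, SE 0.27, adjusted p = 0.00388). Ace, angiotensin-converting enzyme, stood at 185 CPM against 6.42, 5.11, 0 and 0.0922 CPM, and Treml4 at 82.1 CPM against 5.73, 3.37, 0 and 0.184 CPM (adjusted p = 0.0295 and 0.0424). Of 22 alternatives, 4 lost the call of Ace and 7 that of Treml4, DESeq2 and the fit without the i.v. male among both. Nr4a1 itself differed less, at 960 CPM against 163, 370, 338 and 354 CPM (log2 difference 1.65, SE 0.41, adjusted p = 0.0400). By sets, Itgal reached 1272 CPM in the Treml4 set and 173 CPM in the Ly6c2 set. Since the sets were drawn by genes of these lists, their counts by set are not given. Over all genes, 4.68% were called higher and 7.94% lower with the Ly6c2 set alone, and 4.71% and 7.7% with the Treml4 set alone.

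The S100, annexin and related genes of migrating cells had a median of 2.32, yet 4 of 19 were called higher and 1 lower, and the GFP+ libraries lay far apart. S100a6 stood at 2472 CPM against 310 and 463 CPM (i.v.) and 2.93 and 0.738 CPM (i.c.v.), and its adjusted p was 0.282. Against the i.v. libraries alone 13 of the 19 were called higher (background 7.6%) and against the i.c.v. libraries alone 18 (background 18.2%). Of 16 granule and antimicrobial genes 3 were called higher: Lyz2, lysozyme, at 25659 CPM against 9299, 5969, 2785 and 5511 CPM, Lyz1, which shares much of its sequence with Lyz2, and Prtn3, a granule protease (median of the list 0.65). Without the Prg4 and Retnla sets 1 gene of the list was called. Of 25 adhesion genes 6 were called higher and 5 lower (median 0.64). The beta-2 integrin Itgb2 stood at 496 CPM against 93.2 to 144 CPM, and Itga4, which binds Vcam1, at 440.5 CPM against 106 to 185 CPM (adjusted p = 0.00653 and 0.0167). Itgb5 lay the other way, at 19.2 CPM against 401 to 629 CPM, and F11r, a junctional adhesion molecule, had 0 UMIs in the blood cells, at least 31.3-fold lower than in GFP+ cells with the limit at 3 UMIs.

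The 10 largest increases among called genes with at least 50 CPM were Prg4, Alox15, Serpinb2, Ltbp1, Selp, Ecm1, Ptgis, F5, Pdlim1 and Padi4. The first 8 are the genes that define the Prg4 set, whose definition followed from them. Prg4 stood at 726 CPM in the sum and at 0 to 0.187 CPM in the GFP+ libraries. It passed the filter on low counts through blood, so its place among the increases is description only. Without the Prg4 and Retnla sets, 999 genes (7.79%) were called higher and 1556 (12.1%) lower, and 90 of the 102 named genes that could still be tested kept their call and direction. Of the others Ednrb, the endothelin B receptor, which was called higher at 121 CPM against 1.30 to 2.37 CPM, then had 0 UMIs, since all its UMIs came from 9 cells of these sets.

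**Figure D4:**
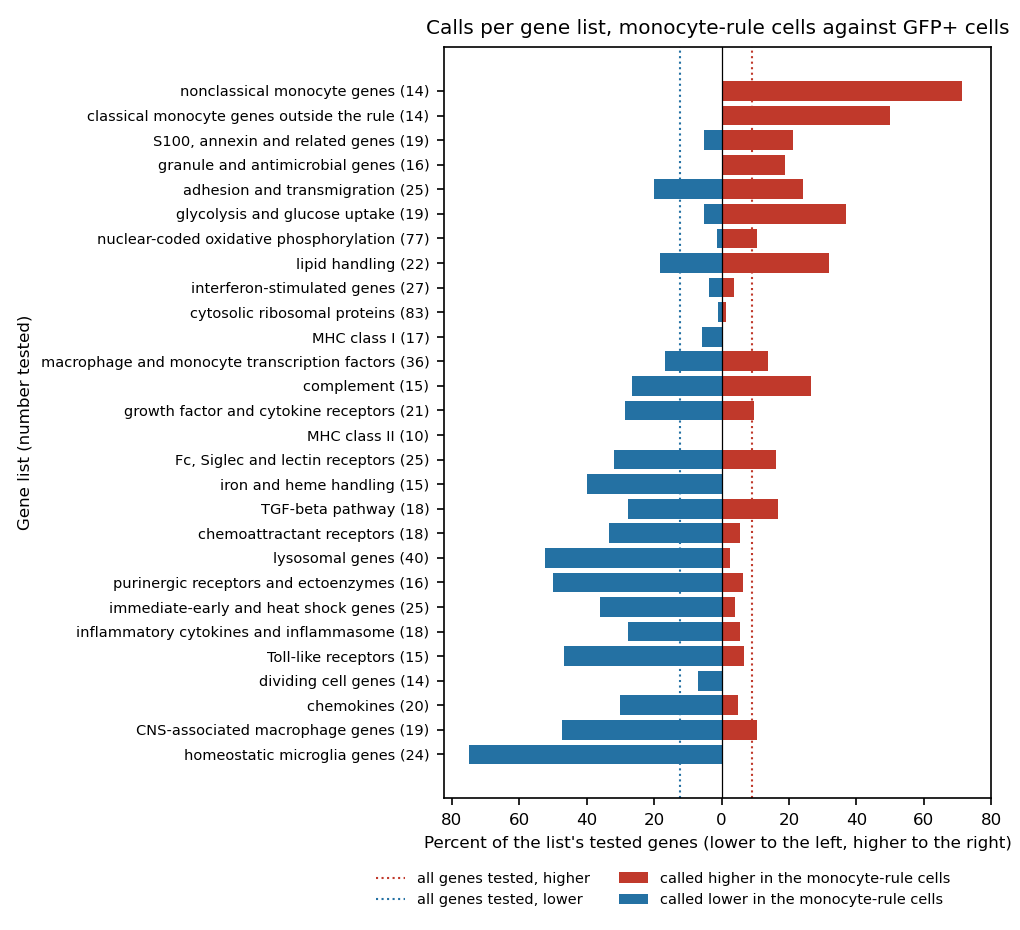
Percent of the tested genes of each list that were called higher (right, red) or lower (left, blue) in the monocyte-rule cells than in GFP+ cells, with dotted lines at 9.02% and 12.3% for all genes. Bars of the nonclassical (71.4%) and classical monocyte lists (7 of 14) extend to the right, and that of homeostatic microglia genes (18 of 24) to the left.

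On the side of the brain cells, homeostatic microglia genes gave 18 of 24 called lower in the blood cells (against 12.3% of all genes) and 0 higher. Their median log2 fold change was -4.72, or -3.86 with the 7 genes at 0 blood UMIs set to the level of 3 UMIs. P2ry12 (chromosome 3, 59216272 to 59262871), the ADP receptor by which microglia sense injury, had 0 UMIs in the monocyte-rule cells against 328, 294, 494 and 464 CPM, and was at least 151-fold lower. Sparc and Siglech also had 0 UMIs and were at least 165-fold and at least 155-fold lower than the GFP+ mean. Tmem119 had 3 UMIs, 112-fold below the GFP+ mean (95% counting interval 38.3 to 542), and Gpr34 had 2 UMIs, 286-fold below it (79.2 to 2361). The fractalkine receptor Cx3cr1 was present in blood and lower, at 232 CPM against 1405, 997, 1243 and 1315 CPM (log2 difference -2.42, SE 0.31, adjusted p = 0.00753), and it was a gate of the brain sort. Csf1r, the receptor for the growth factors that keep macrophages alive, stood at 561 CPM against 1117 to 1738 CPM, with an adjusted p of 0.0459 that was lost in 6 of 22 alternatives. Sall1, the microglial identity factor, had 0 UMIs in blood but reached 5.55 to 23.03 CPM in the GFP+ libraries, against 250.5 CPM in the naive microglia sort, and did not pass (adjusted p = 0.0882).

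Genes of CNS-associated macrophages, which line the meninges and vessels of the brain, gave 9 of 19 called lower and 2 higher (median -2.60, or -1.66 with genes at 0 UMIs set to the limit). Ms4a7 stood at 6.99 CPM against 941, 790, 641 and 908 CPM in GFP+ cells (log2 difference -6.87, SE 0.46, adjusted p = 0.00388). Its level in the GFP- libraries was 99.4 to 336 CPM and in the naive microglia sort 113 CPM, so the GFP+ libraries lay above all 3 comparators. Mrc1 was at 89.1 CPM against 463 to 668 CPM, and Stab1, a scavenger receptor, at 7.87 CPM against 378 to 512 CPM. The 2 genes called higher were F13a1, which is also a classical monocyte gene, and Ednrb, whose call rests on the Prg4 and Retnla sets.

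Lipid and lysosomal genes were among the most abundant transcripts that separated the cell types. Apoe (chromosome 7, 19696109 to 19699188), the main lipid carrier of the brain, stood at 1945 CPM in the blood cells against 64475, 60592, 70278 and 86645 CPM in the GFP+ libraries (log2 difference -5.18, SE 0.42, adjusted p = 0.00388). The GFP- libraries had 10116 to 34354 CPM and the naive microglia sort 6832 CPM, so Apoe was highest in the GFP+ cells. Trem2, a lipid-sensing receptor, was at 40.2 CPM against 1319 to 1787 CPM, and Abca1, which exports cholesterol, at 16.6 CPM against 322 to 573 CPM. In the other direction Lpl, lipoprotein lipase, stood at 126 CPM with a log2 fold change of 2.86, and Cd36, a fatty acid receptor, at 161 CPM with 2.04 (adjusted p = 0.0192 and 0.0482). Of 22 lipid genes 7 were called higher and 4 lower (median 0.38), and without the Prg4 and Retnla sets 4 were called higher. Of 40 lysosomal genes 21 were called lower and 1, Psap, higher (median -0.98). Ctsd, cathepsin D, stood at 412 CPM against 5327 to 7837 CPM, and Cd63 at 5.24 CPM against 912 to 1194 CPM.

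Calls among receptors for local signals were mostly lower. Purinergic receptors and ectoenzymes gave 8 of 16 lower and 1 higher (median -1.13), with P2ry13 at 0 UMIs and at least 62.1-fold lower and Entpd1, which degrades extracellular ATP, at 40.2 CPM against 165 to 280 CPM. Toll-like receptors and their partners gave 7 of 15 lower and 1 higher (median -1.32, or -1.24 with genes at 0 UMIs set to the limit), Fc, Siglec and lectin receptors 8 of 25 lower and 4 higher (median -0.76), and chemoattractant receptors 6 of 18 lower and 1 higher (median -0.93). Clec4a1, a lectin receptor, was higher in blood, at 231 CPM against 9.99 to 29.6 CPM (adjusted p = 0.00938). The 1 chemoattractant receptor called higher was S1pr5, a sphingosine phosphate receptor known from patrolling monocytes, at 30.6 CPM against 0 to 2.29 CPM (adjusted p = 0.0497), and it lost the call in 9 of 21 alternatives. Growth factor and cytokine receptors gave 6 of 21 lower and 2 higher (median -0.31). Of 18 TGF-beta pathway genes 5 were lower and 3 higher (median -0.85, or -0.19 with genes at 0 UMIs set to the limit). Tgfbr1, a receptor chain, stood at 59.4 CPM against 478 to 803 CPM, and Smad7, the pathway's feedback inhibitor, at 34.1 CPM against 186 to 396 CPM (adjusted p = 0.00760 and 0.0170).

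Chemokines gave 6 of 20 lower and 1 higher (median -2.25). Ccl4 was at 11.4 CPM against 1089, 1549, 1491 and 1409 CPM (log2 difference -6.93, SE 0.44, adjusted p = 0.00388), Ccl3 at 24.5 CPM against 653 to 1009 CPM, and Ccl12 at 0 UMIs, at least 196-fold lower. Ccl6, a chemokine of resting myeloid cells, was the chemokine called higher, at 1893 CPM against 39.8 to 135 CPM (adjusted p = 0.00866). Inflammatory cytokine and inflammasome genes gave 5 of 18 lower and 1 higher (median -1.31, or -1.17 with the gene at 0 UMIs set to the limit), with Tnf at 3.50 CPM against 154 to 215 CPM and Il1a at 1 UMI. Il1b, at 221 CPM against 500 to 2521 CPM, did not pass (adjusted p = 0.162). Immediate-early and heat shock genes gave 9 of 25 lower and 1 higher (median -1.21). Jun stood at 313 CPM against 2968 to 4346 CPM and Fosb at 177 CPM against 928 to 1403 CPM. These genes respond to tissue dissociation, which the brains underwent. The part of cell preparation in their difference, and in those of the chemokines and cytokines, was not tested.

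Of 36 transcription factors 5 (13.9%) were called higher and 6 (16.7%) lower (median -0.11), shares near the 9.02% and 12.3% over all genes. Cebpb, a factor of monocytes and granulocytes, stood at 3021 CPM against 493 to 820 CPM (adjusted p = 0.0102). Maf, which marks differentiated macrophages, stood at 61.2 CPM against 532 to 737 CPM (adjusted p = 0.00490). Spi1, the factor all these cells need, was at 493 CPM against 345 to 412 CPM and did not pass (adjusted p = 0.189). Of 15 complement genes 4 were called in each direction (median -0.20): the C1q genes and C3ar1 were lower, and C3, C4b, Cfp and Itgb2 higher. C1qa stood at 472 CPM against 5897 to 7270 CPM, and its blood level came from the Prg4 and Retnla sets, since it had 0 CPM in the Treml4 set and 8.11 CPM in the Ly6c2 set.

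MHC class II was the list in which the routes went apart most plainly. None of its 10 genes was called against all 4 GFP+ libraries (median -0.59), by edgeR at an adjusted p under 0.05, while 0 had an unadjusted p under 0.05 and 1 was called by DESeq2. Cd74 stood at 6146 CPM in the blood cells, at 11662 and 13552 CPM in the i.v. and at 399 and 1528 CPM in the i.c.v. GFP+ libraries. Its blood level was uneven, at 19960 CPM in the remaining 14 cells against 4534 CPM in the other monocyte-rule cells. The Retnla set was also high in Cd74, as given above. Counts of this list are for all monocyte-rule cells together. Against the i.v. libraries alone 6 of the 10 genes were lower in blood and 0 higher (background 9.02% lower), and against the i.c.v. libraries alone 6 were higher and 1 lower (background 18.2% higher). MHC class I (0 of 17 higher, 1 lower, median -0.01) and interferon-stimulated genes (1 of 27 in each direction, median 0.16) showed few calls. The interferon-stimulated gene called lower was Bst2, tetherin, at 128 CPM in the blood cells against 1173, 1118, 1190 and 1235 CPM in GFP+ cells, and it was also above the GFP- libraries (231 to 644 CPM) and the naive microglia sort (235 CPM). Ifitm3 was called higher, at 3506 CPM against 732, 704, 145 and 258 CPM (adjusted p = 0.0441), and lost the call in 6 of 22 alternatives.

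In metabolism, 7 of 19 glycolysis and glucose uptake genes were called higher and 1 lower (median 0.64), with Eno1 at 371 CPM against 72.1 to 117 CPM. This count fell to 3 without the Prg4 and Retnla sets. Nuclear-coded oxidative phosphorylation genes had 8 of 77 higher (10.4%, near the 9.02% over all genes) and 1 lower (median 0.60), and DESeq2 called 30 higher, where it called 1316 genes higher in all. Against the i.c.v. libraries alone 60 of these genes were higher (background 18.2%), and against the i.v. libraries alone 5 (background 7.6%). Cytosolic ribosomal protein genes had 1 of 83 in each direction (median 0.08), and 29 higher against the i.c.v. libraries alone (background 18.2%). Iron and heme genes gave 6 of 15 lower and 0 higher (median -0.84), led by Slc40a1, the iron exporter, at 0 UMIs and at least 52.6-fold lower. Dividing cell genes gave 1 of 14 lower and 0 higher (median -1.78, or -1.25 with genes at 0 UMIs set to the limit), and the 1 called, Cenpf, had 1 UMI in the blood cells.

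Beyond the lists, the 10 largest decreases among called genes were Vcam1, Ccl12, Sparc, Siglech, P2ry12, Dst, Sox4, Tanc2, P2ry13 and Slc40a1, each with 0 UMIs in the monocyte-rule cells. In all, 60 genes called lower had 0 blood UMIs and at least 20 CPM in GFP+ cells. Vcam1 (chromosome 3, 116109949 to 116129688), the endothelial and macrophage ligand of Itga4, stood at 289, 428, 654 and 837 CPM in the GFP+ libraries and was at least 210.5-fold lower in the blood cells. Dst, a cytoskeletal linker, and Sox4, a transcription factor, were at least 111-fold and at least 108-fold lower.

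To ask on which side of this contrast the treated cells lie, genes were chosen from the naive mouse alone, at least 4-fold apart on the log2(CPM + 2) scale between the monocyte-rule cells and the naive microglia sort and with at least 20 CPM in the higher of them. This gave 431 genes on the monocyte side and 526 on the microglia side. The choice used all monocyte-rule cells, so genes of the Prg4 and Retnla sets, such as F5 and Retnla, are on the monocyte side. The results on these sides were not repeated without the Prg4 and Retnla sets. They were then compared between the 4 GFP+ and 4 GFP- libraries, which had no part in the choice. The naive microglia sort itself carried neutrophil marker transcripts at 9237 CPM, and its cells had a median of 425 UMIs.

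Of 361 monocyte-side genes tested, 112 (31.0%) were called higher in GFP+ MLCs and 7 lower, against 16.6% higher and 15.9% lower over 11755 genes, and the median log2 fold change was 0.86 against 0.01 over all genes. With the mouse as a block 67 were called higher. Leaving out 1 library gave 50 (GFP- i.v. male), 59 (GFP- i.c.v. male), 63 (GFP+ i.v. male) and 70 (either library of the i.v. female), and 114 to 166 for the other 3 libraries. Of 522 microglia-side genes tested, 286 (54.8%) were lower in MLCs and 23 higher. On the monocyte side Adam19, a membrane protease, stood at 16.1 to 26.6 CPM in the GFP+ and 2.90 to 7.75 CPM in the GFP- libraries (log2 fold change 2.12), and Itga4 at 114 to 201 CPM and 20.6 to 63.7 CPM (1.97), both without overlap between the sorts. On the microglia side Sall3 stood at 0.117 to 3.25 CPM in GFP+ and 50.8 to 77.4 CPM in GFP- libraries (log2 fold change -5.91), and Sall1 at 6.03 to 24.9 CPM and 153 to 254 CPM (-3.76). Ms4a7, Vcam1, Clec4n and Cxcl16 went against their side, with more in the naive microglia sort than in the blood cells and yet more in MLCs than in GFP- cells. Ms4a7 reached 692 to 1044 CPM in GFP+ and 107 to 363 CPM in GFP- libraries.

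The monocyte-side difference belonged mostly to the i.v. mice. Within them 277 of 404 genes were called higher in GFP+ cells and 5 lower (background 18.9% and 16.9%, median 1.70), and within the i.c.v. mice 10 were higher and 45 lower (background 1.33% and 4.42%, median -0.16). These fits were chosen after the data were seen. The difference between the routes, tested as an interaction, was larger in the i.v. mice for 103 of 404 genes (25.5%, against 1.82% of all genes). Napsa, an aspartic protease, had a log2 fold change between GFP+ and GFP- cells of 3.13 in the i.v. and -5.56 in the i.c.v. mice (adjusted p of the difference 0.00673), and S100a6 had 2.997 and -5.52 (0.0172). Itga4 was higher in both, by 2.83 and 1.34 on the log2 scale, and the difference between the routes did not pass for it (adjusted p = 0.0826). The i.c.v. GFP- libraries held monocyte and neutrophil marker transcripts (149 and 6035 CPM in the female, 51.2 and 1181 CPM in the male), and their part in the negative values was not tested. All mice had received untransduced marrow, whose progeny the GFP- sort cannot tell from endogenous microglia. Ms4a7 stood at 107 and 168 CPM in the i.v. and at 363 and 270 CPM in the i.c.v. GFP- libraries. The part of such cells in the difference between routes was not tested. Microglia-side genes were lower in MLCs in both routes, 329 of 524 within the i.v. and 144 within the i.c.v. mice.

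GFP+ libraries of the routes were also compared directly. Of 404 monocyte-side genes 143 (35.4%) were higher in the i.v. GFP+ libraries and 0 lower, against 2.56% and 0.207% of 12539 genes, with the spread taken from all 8 treated libraries. Leaving out the i.c.v. female's GFP+ library left 21 and leaving out the i.c.v. male's 74. Without cells that met the monocyte rule 110 were called, and without cells carrying neutrophil, B cell or T cell markers 120. Itgb7, an integrin chain, stood at 38.9 and 49.7 CPM (i.v.) against 0.939 and 0.698 CPM (i.c.v.), a log2 difference of 5.75 (SE 0.36, adjusted p = 0.000902). Napsa stood at 133 and 144 CPM against 0 and 0.598 CPM, and Lsp1, a leukocyte actin-binding protein, at 296 and 389 CPM against 14.4 and 20.8 CPM. Ccr2, S100a4, Plac8 and Ly6c2 of the rule were called higher in the i.v. libraries as well, and Chil3, Fn1 and Vcan were not (adjusted p = 0.117, 0.0710 and 0.422). Cells that met the monocyte rule were chosen by UMIs of these genes, so leaving them out lowers the genes by construction. Calls of rule genes in that fit are therefore not given. With such cells left out, Plac8 stood at 11.8 and 8.39 CPM in the i.v. and 0 CPM in both i.c.v. libraries, as description only.

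Cells that met the monocyte rule itself were rare in the brain. There were 43 of 3344 GFP+ cells in the i.v. female (1.29%, 95% exact interval 0.932% to 1.73%) and 21 of 2266 in the i.v. male (0.927%, 0.575% to 1.41%). In the i.c.v. GFP+ libraries there were 0 of 2621 and 0 of 3536, which allows shares of up to 0.114% and 0.0848% if 3 cells are taken as the most that a count of 0 allows (exact upper bounds 0.141% and 0.104%). GFP- libraries held 1 to 4 such cells each, the naive microglia sort 3 of 1274 (0.235%), and the naive neuron and astrocyte sorts, which should lack them, 0 of 575 and 0 of 1146 at median depths of 6937 and 3395 UMIs. The i.v. female's GFP+ library was the deepest per cell. With every cell drawn down to 1000 UMIs and shallower cells left out, 15 of 2561 and 4 of 1393 i.v. cells met the rule and 0 of 1373 and 0 of 1875 i.c.v. cells, against 64 of 329 in blood. The intervals cover counting error only.

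On a scale that puts the monocyte-rule cells at 0 and the naive microglia sort at 1, gene by gene in log2(CPM + 2), the median position of 361 monocyte-side genes was 0.706 and 0.6295 in the i.v. GFP+ libraries and 1.0014 and 0.9495 in the i.c.v. GFP+ libraries. For 520 microglia-side genes it was 0.749 and 0.757 (i.v.) and 0.870 and 0.846 (i.c.v.). GFP- libraries lay between 0.916 and 1.10 on the first set and between 0.957 and 1.03 on the second. The i.v. MLCs were thus nearest to the monocyte-rule cells on both sets of genes, still beyond the midpoint toward microglia. No test was made of these positions, whose ends are 1 library each.

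**Figure D5:**
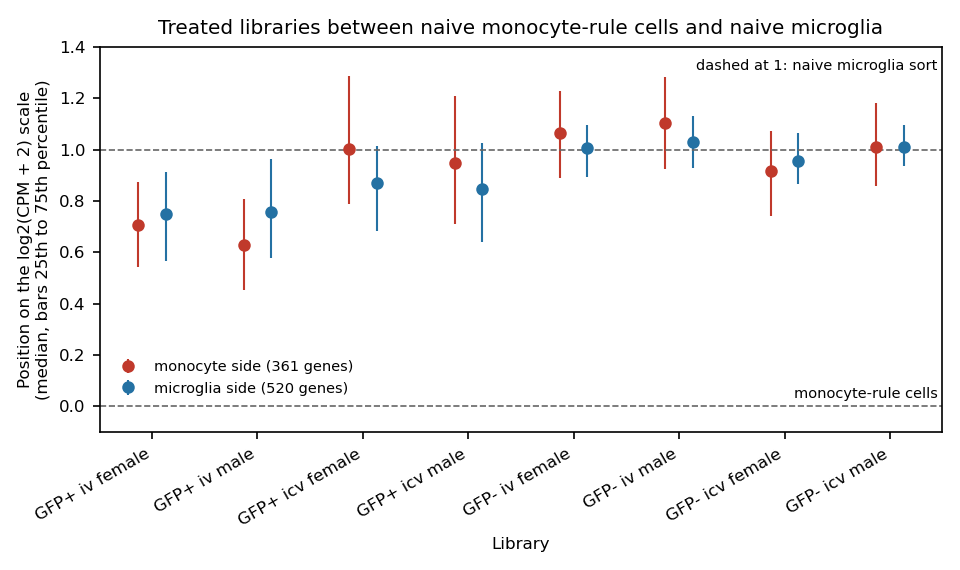
Median position per treated library (points, with bars from the 25th to the 75th percentile over genes) between the monocyte-rule cells (0) and the naive microglia sort (1), for monocyte-side genes (red, 361) and microglia-side genes (blue, 520). The i.v. GFP+ libraries sit lowest, at 0.6295 to 0.757, and the GFP- libraries sit between 0.916 and 1.10.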

How the data were processed

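Droplet single-cell RNA was measured in 12 libraries. The authors deposited counts of UMIs per gene and barcode, made with Cell Ranger 3.1.0 per the file headers on mm10, without normalization and without pooling of mice. The 31053 features shared by all files were used. Kept barcodes had 200 detected genes or more and no more than 10% of UMIs from mitochondrial genes, no doublet caller was run, and counts were summed per library. Library was the unit of replication, and mice are separate animals.

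Sums were scaled by TMM, filtered with filterByExpr and compared by edgeR 4.0.16 (R 4.3.3), with quasi-likelihood F tests, two-sided, and Benjamini-Hochberg adjustment over all genes tested. DESeq2 1.42.0 was an alternative. The scripts were tested on simulated data. Python 3.11.15 with numpy 2.4.6, pandas 2.3.3 and scipy 1.17.1 gave the remaining values. Shares carry exact (Clopper-Pearson) intervals. Positions are those of a GENCODE annotation of GRCm38.

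Genes are named if they belong to the rule, if they are among the 4 largest called changes of a list reaching 20 CPM in either group, or among the 10 largest called changes in each direction reaching 50 CPM and a blood value outside the GFP+ range. List members needed to account for a count are added, and genes describing the sets of cells, Napsa, S100a6, Itgb7 and Lsp1 were chosen after their values were seen. Sex-linked, immunoglobulin and hemoglobin genes were left out of these choices. The cells and the gene lists were chosen with earlier results of these data known. GFP+ and GFP- libraries of the same number come from the same mouse and are paired by that alone. The correlations of their deviations from the group means were 0.205 and -0.275 in the i.v. mice and -0.331 and 0.0131 in the i.c.v. mice.

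Alternatives were other cell filters and rules, thinning every cell to 500 UMIs, other normalizations, filters and pseudocounts, a stricter choice of genes, single routes, the mouse as a block, and each library left out in turn.

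Some results are not reported here.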

Additional observations from a re-analysis of the deposited data

Results flagged for a closer look

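Over the 4 GFP+ libraries, each named gene was checked for a library far from the others (114 genes checked), which chance alone gives in about 1 of 20 groups, and 3 genes were met. C1qa stood at 5897 CPM in the i.v. male against 7038 to 7270 CPM in the others. Hk2, a hexokinase, stood at 179.4 CPM in the i.c.v. female against 142.6 to 147.4 CPM. Alox15 had 1.059 CPM in the i.v. female and 0 CPM in the others. The difference between GFP+ and GFP- cells was larger in the i.v. than in the i.c.v. mice for 103 monocyte-side genes, by the interaction test described above. Outside the monocyte-rule cells, 22 kept blood cells carried the genes of the Prg4 set, more than in any brain library.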

How the results depend on the processing

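Alternatives that leave out the Prg4 and Retnla sets, use 1 set or 1 route, or compare routes were chosen after seeing the data. The median shift over all genes was -0.98 without a filter on low counts and -0.87 with cells thinned to 500 UMIs, against -0.22. Each alternative is a fit of its own. In place of 1149 genes called higher in the monocyte-rule cells, there were 753 with cells holding both Ly6c2 and Ccr2, 135 with thinning, 594 and 596 with the Ly6c2 and the Treml4 set alone and 2167 against the i.c.v. libraries alone, and leaving out 1 GFP+ library gave 603 (without the i.c.v. male) to 1397. For the 1569 called lower the counts were 303 (thinned), 1008 and 975 (Ly6c2 and Treml4 set alone), and 903 (without the i.c.v. male) to 1951. The 257 genes 4-fold above every GFP+ library became 487 against the i.c.v. libraries alone, 113 with log2(CPM + 10) and 905 at 2-fold. The 437 genes 4-fold below became 726 (Ly6c2 and Ccr2), 2642 (thinned), 818 and 906 (Ly6c2 and Treml4 set alone), 997 with log2(CPM + 0.5), 151 with log2(CPM + 10) and 1487 at 2-fold.

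Of the monocyte-side genes, 112 were higher in GFP+ than GFP- cells, and 67 with the mouse as a replicate block, which moved no other count by over 1.5 times. There were 71 with a stricter cell filter (500 genes, 5% mitochondrial), 38 with an 8-fold choice, 277 and 10 within the i.v. and i.c.v. mice, and 50 (without the GFP- i.v. male) to 166 with 1 library left out. Without the i.v. female or male GFP+ library there were 70 and 63, and without the GFP- i.v. female or i.c.v. male 70 and 59. The 7 lower became 3 (stricter filter), 11 (monocyte-rule cells left out), 1 (8-fold), 45 (i.c.v.), and 3 to 10. The 23 microglia-side genes higher became 38 (stricter filter), 10 (8-fold), 36 and 9 (i.v. and i.c.v.), and the 286 lower became 166 (8-fold) and 144 (i.c.v.). The 143 genes higher in i.v. than i.c.v. GFP+ libraries ranged from 21 to 117 with 1 library left out.

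Thinned to 500 and 1000 UMIs, 0.20933% and 0.58571% of GFP+ cells of the i.v. female met the rule and 0% and 0.28715% of the i.v. male, and 0% of GFP- cells in both i.v. mice and the i.c.v. male at either depth and in the i.c.v. female at 500 UMIs. The fitted log2 fold change of Ednrb turned to -6.529 with the stricter filter, -7.045 with Ly6c2 and Ccr2, -7.058 without the Prg4 and Retnla sets, -7.043 and -7.041 with the Ly6c2 and the Treml4 set alone, and the log2 fold change of Lyz1 turned to -9.251 with the Treml4 set alone. Fitted values of genes left with few or no UMIs depend on the prior count. Over 107 named genes and 22 alternatives, 2104 of 2318 values kept call and direction, 208 lost the call and 6 reversed. Other causes were not tested. Blood was 1 library, so genes with 0 UMIs are known only to lie under about 3 UMIs, or 2.62 CPM after TMM scaling.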
